A study of Mus musculus with 6 samples.

Results

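Exoribonucleases shorten RNA from an end, and mouse cells hold several that differ in direction and compartment. Described here are 9 of their genes: Exosc10, Dis3 and Dis3l, which supply catalytic activity to the RNA exosome, the exosome-independent Dis3l2, the 5'-to-3' enzymes Xrn1 and Xrn2, the mitochondrial Pnpt1, the deadenylase Parn, and Eri1. Members were the probes whose gene name is one of these 9 symbols, a rule that uses no measured value. The 9 genes themselves were chosen with earlier results of these data known. They came to 12 of the 55660 usable probes on the array, and those carried 34807 names in all. There was 1 probe for each of 6 genes and 2 for each of Exosc10, Dis3l2 and Pnpt1. Every one of the 12 was well above background on all 6 arrays, so all passed the filter on dim probes.

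The exosome core is a ring of subunits that in mammals has no catalytic activity of its own. It threads RNA towards Exosc10, which sits on the ring mainly in the nucleus and nucleolus, or towards Dis3 in the nucleus or Dis3l in the cytoplasm. Exosc8 is a subunit of that ring. In red cell precursors, RNA turnover matters because much of the transcriptome is cleared while globin messages persist.

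The cells were erythroid progenitors isolated from mouse fetal liver at embryonic day E-14.5, infected with retrovirus and kept for 3 days in medium with erythropoietin, dexamethasone and kit ligand. In 3 samples, called shExosc8, the virus carried a short hairpin RNA against Exosc8. In the other 3, called shControl, the hairpin was directed at luciferase, which mouse cells lack, so both groups share virus, culture and age. Strain, the number of hairpin sequences, the share of cells infected and the pooling of embryos are not given in the sources used here. Each sample is total RNA on a single-colour (Cy3) array. Nothing in the labels ties replicates to different animals or cultures. The p-values therefore cover the spread among these 6 samples, and that spread may be technical.

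Values below are the processed signal scaled to each array's 75th percentile and written as a percentage of the mean of the 3 shControl arrays (the mean of their log2 values). A difference is on the log2 scale, shExosc8 minus shControl, with its standard error. A probe was called where limma gave an adjusted p (Benjamini-Hochberg over 24836 probes) under 0.05. An exact two-sided permutation test of the 6 values of a probe cannot go below p = 0.1. Probe levels are not compared between genes, since probes differ in brightness.

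The target of the hairpin was lower in every shExosc8 array. Exosc8 read 40.4%, 40.0% and 57.4% in shExosc8 replicates 1 to 3, and 98.5%, 97.8% and 103.8% in shControl. Its mean in shExosc8 was 45.3% of control, a difference of -1.14 ± 0.17 (limma, adjusted p = 0.00606). Replicate 3 kept the most Exosc8 signal. Between 25580 and 39936 of 59305 non-control spots per array were well above background, the most on shControl replicate 2. Arrays correlated at 0.985 to 0.997 within groups and at 0.953 to 0.978 between groups. Each group filled its own row of the slide, and an effect of slide row cannot be told apart from the hairpin.

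Of the 12 exoribonuclease probes, 6 were lower in shExosc8 and 0 were higher by the limma call. An unadjusted limma p under 0.05 was found for 7, which are these 6 and Xrn1. Over all probes tested, 13.1% were called lower and 14.7% higher. The 6 probes belong to 5 genes: Exosc10, Dis3, Dis3l, Xrn2 and Pnpt1. In 7 probes all 3 shExosc8 arrays lay below all 3 shControl arrays, against 28.7% of all probes. In 1 probe, that of Xrn1, they all lay above, against 21.8%. The difference was below 0 in 11 of the 12, with a median of -0.31, where the median over all probes was -0.08 and 56.8% of them were below 0. The falls were modest: the called members had a median of -0.48, against -0.65 over all probes called lower. With 1 probe per gene, 4 of the 9 genes were called lower, against 13.8% of all genes.

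**Figure D1:**
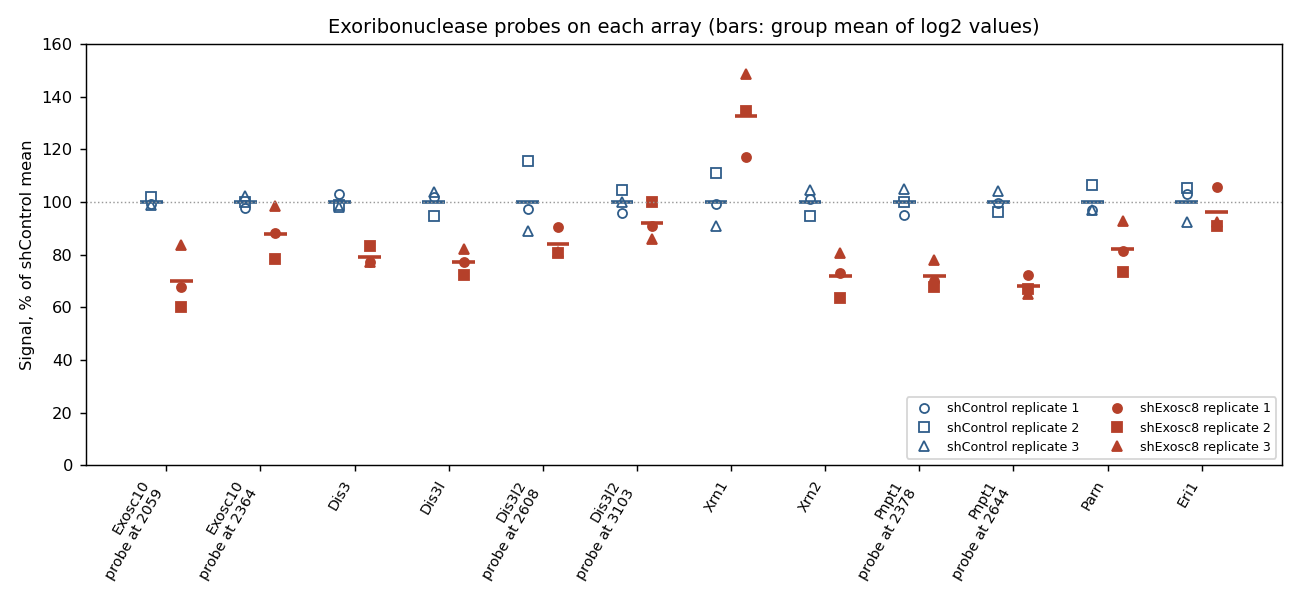
Signal of each of the 12 exoribonuclease probes on each array, as a percentage of that probe's shControl mean. Open blue symbols are shControl and filled red symbols shExosc8, with the shape giving the replicate and bars the group mean of log2 values; Xrn1 is the only gene with all shExosc8 arrays above all shControl arrays, and Eri1 is among the probes where the groups overlap.

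Exosc10, the nuclear exosome nuclease that trims ribosomal and small nucleolar RNA, was measured by 2 probes, which gave different answers. Both lie in NM_016699, on the plus strand of chromosome 4 in mm9, at chr4:147949950-147950009 and chr4:147954469-147954528. Their sequences are shown because the result for this gene depends on which is read. They start at bases 2059 and 2364 of the transcript, 305 bases apart there and 4519 apart in the genome, so the genome distance spans sequence absent from the transcript. An exon and UTR annotation of mm9 was not used here.
Exosc10 probe at 2059: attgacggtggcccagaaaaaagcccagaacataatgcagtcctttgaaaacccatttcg
Exosc10 probe at 2364: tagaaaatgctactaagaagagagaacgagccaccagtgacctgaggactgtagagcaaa

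The probe at 2059 read 67.7%, 60.1% and 83.7% in shExosc8, and 99.1%, 102.1% and 98.9% in shControl. All shExosc8 arrays lay below all shControl arrays, with replicate 3 the nearest to them. The mean was 69.9% of control (95% interval 54.9% to 88.9%), a difference of -0.52 ± 0.14 with a limma adjusted p of 0.0418. The probe at 2364 read 88.2%, 78.4% and 98.4% in shExosc8, and 97.8%, 100.0% and 102.3% in shControl. Here replicate 3 lay inside the control range, so the groups overlapped. The difference was -0.19 ± 0.12 with a limma adjusted p of 0.269.

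On each array, the log2 difference between the Exosc10 probes, upstream minus downstream and centred on the controls, was -0.38, -0.38 and -0.23 in shExosc8. In shControl it was 0.019, 0.030 and -0.049. Thus the upstream probe lay further below control than the downstream one in all 3 shExosc8 arrays, by -0.33 ± 0.055 on average. The exact permutation p was 0.1, the smallest possible, and 0.3 after adjustment over the 9 comparisons between member probes. Whether the probes detect different isoforms was not tested.

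Dis3 is the nuclear exosome subunit with both a processive exonuclease and an endonuclease activity. Its probe lies in NM_028315 at chr14:99476505-99476564 of mm9, on the minus strand. Signal was 77.3%, 83.2% and 77.0% in shExosc8, and 103.1%, 98.8% and 98.2% in shControl. The groups did not overlap, and the 3 shExosc8 arrays stood close together. The mean was 79.1% of control (67.1% to 93.2%), a difference of -0.34 ± 0.10 with a limma adjusted p of 0.0464, close to the threshold.

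Dis3l, the cytoplasmic counterpart of Dis3, was measured by 1 probe in NM_001001295 at chr9:64154818-64154877, minus strand. It read 77.1%, 72.4% and 82.0% in shExosc8, and 101.8%, 94.5% and 104.0% in shControl. Again no shExosc8 array reached the lowest control. The difference was -0.38 ± 0.11, with a limma adjusted p of 0.0432. The changes of Dis3 and Dis3l differed by 0.037 ± 0.096, with an exact permutation p of 0.9.

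Dis3l2, the family member that works without the exosome on RNAs with a uridine tail, passed the test with neither of its probes. Both lie in NM_001172157 on the plus strand of chromosome 1. The probe at 2608 (chr1:88945422-88945481) read 90.5%, 80.6% and 81.1% in shExosc8, and 97.4%, 115.5% and 88.9% in shControl. Only shExosc8 replicate 1 reached the control range, which was wide, and the difference was -0.25 ± 0.13 (limma, adjusted p = 0.192). The probe at 3103 (chr1:88946605-88946664) read 90.8%, 100.0% and 86.0%, against 95.8%, 104.6% and 99.8%. Its difference was -0.12 ± 0.11 (limma, adjusted p = 0.427).

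The change of Dis3 lay below that of the Dis3l2 probe at 3103 by -0.22 ± 0.064, with an exact permutation p of 0.1 and an adjusted value of 0.3. Against the probe at 2608 the gap was -0.086 ± 0.14 (exact permutation p = 0.5). Dis3l differed from the same 2 probes by -0.26 ± 0.14 (exact permutation p = 0.2) and -0.12 ± 0.17 (exact permutation p = 0.6). With 3 arrays a group, none of these exact tests could pass 0.05. The 95% interval of the gap between Dis3 and the Dis3l2 probe at 3103, from the spread of the within-array differences and not adjusted over the 9 comparisons, was -0.40 to -0.042. The intervals of the other 3 gaps included 0.

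The 5'-to-3' enzymes had differences of opposite sign, of which that of Xrn2 was called. Xrn2, the nuclear enzyme that degrades the RNA left on the template after cleavage at the polyadenylation site, was measured at chr2:146903611-146903670 (NM_011917, plus strand). It read 73.2%, 63.3% and 80.6% in shExosc8, and 101.0%, 94.6% and 104.7% in shControl. All shExosc8 arrays lay below the lowest control. The mean was 72.0% of control, a difference of -0.47 ± 0.13 with a limma adjusted p of 0.0372.

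Xrn1, the cytoplasmic enzyme that degrades messages once their cap is removed, was the only member with a difference above 0. Its probe lies in NM_011916 at chr9:95946013-95946072, plus strand, and is shown because it alone pointed the other way.
Xrn1 probe at 4538: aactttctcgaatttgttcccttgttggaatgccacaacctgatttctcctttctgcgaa

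Xrn1 signal was 116.9%, 134.6% and 148.7% in shExosc8, and 99.2%, 111.0% and 90.8% in shControl. All shExosc8 arrays lay above the highest control. The mean was 132.8% of control (105.3% to 167.4%), a difference of 0.41 ± 0.14. The unadjusted limma p was 0.0239 and the adjusted p 0.070, so the probe was not called. Its signal was low, though well above background on all 6 arrays, with mean scaled log2 signals of -4.27 in shExosc8 and -4.67 in shControl. The size of the Xrn1 difference depended on the scaling. It was 0.36 with median centring and 0.26 with the percentile over all probes. Under normexp background correction it was 0.34 with percentile scaling and 0.095 with quantile normalization (limma, adjusted p = 0.548). Without normalization between arrays the Xrn1 difference was -0.09, where the median of all probes was -0.58. The changes of Xrn1 and Xrn2 differed by 0.88 ± 0.17, the widest gap among the 9 comparisons. Its exact permutation p was 0.1, the smallest possible, and 0.3 after adjustment.

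**Figure D2:**
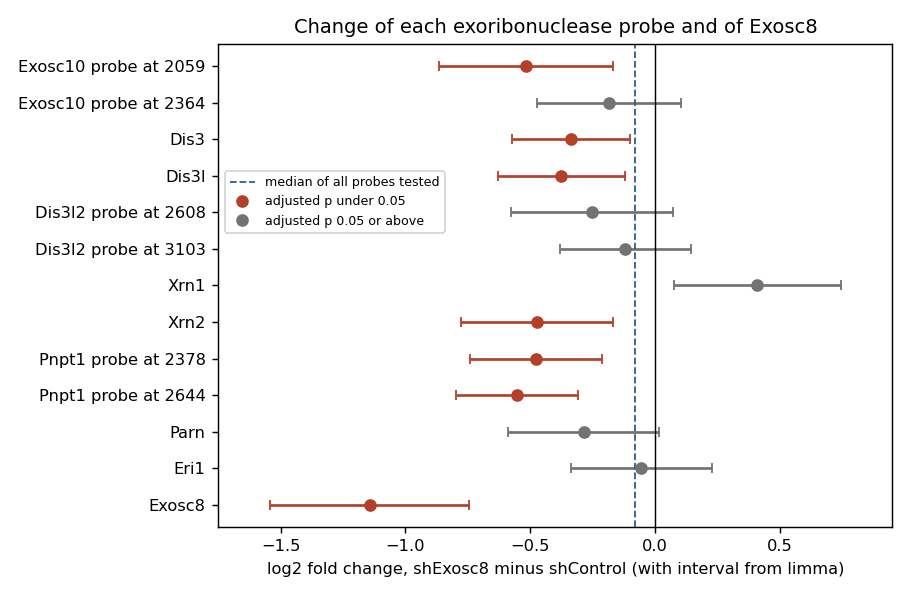
Log2 fold change, shExosc8 minus shControl, of the 12 exoribonuclease probes and of Exosc8, with 95% intervals from limma. Red marks an adjusted p under 0.05, and the dashed line is the median of all 24836 probes at -0.08; the called members lie between -0.34 and -0.55, less far below 0 than Exosc8 at -1.14.

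Pnpt1 encodes polynucleotide phosphorylase, a 3'-to-5' enzyme of mitochondria that works with the helicase Supv3l1. Both of its probes fell. They lie in NM_027869 on the plus strand of chromosome 11, 266 bases apart. The probe at 2378 (chr11:29061503-29061562) read 70.1%, 67.5% and 78.1% in shExosc8, and 95.0%, 100.1% and 105.1% in shControl. The difference was -0.48 ± 0.11 (limma, adjusted p = 0.0243). The probe at 2644 (chr11:29061769-29061828) read 72.4%, 67.1% and 65.2%, against 99.8%, 96.3% and 104.1%.

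In that second probe the mean was 68.1% of control (57.5% to 80.8%), a difference of -0.55 ± 0.10 with a limma adjusted p of 0.0126. This was the lowest adjusted p among the 12 probes. The signal of this probe was low, though well above background on all 6 arrays. Its mean scaled log2 signals were -4.69 in shExosc8 and -4.14 in shControl, against -0.03 and 0.44 for the probe at 2378. Under normexp with percentile scaling the probe at 2644 was not called (limma, adjusted p = 0.0898). In both probes every shExosc8 array lay below every control, and their changes differed by 0.075 ± 0.10 (exact permutation p = 0.7).

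Parn removes poly(A) tails and matures small RNAs, among them the telomerase RNA. Its probe at chr16:13538435-13538494 (NM_028761, minus strand) read 81.3%, 73.2% and 92.6% in shExosc8, and 97.0%, 106.5% and 96.8% in shControl. The groups did not overlap, with replicate 3 nearest to the controls. The difference was -0.29 ± 0.13 and was not called (limma, adjusted p = 0.130). Among the 6 called member probes, replicate 3 was the highest shExosc8 array in 4. It was the lowest for Dis3 (77.0%) and for the Pnpt1 probe at 2644 (65.2%).

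Eri1, which trims the end of histone messages and of ribosomal RNA, showed the smallest difference. Its probe at chr8:36529644-36529703 (NM_026067, minus strand) read 105.8%, 90.9% and 92.6% in shExosc8, and 102.9%, 105.3% and 92.3% in shControl. The groups were intermixed. The difference was -0.06 ± 0.12 (limma, adjusted p = 0.735).

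These calls rested on few arrays. The Pnpt1 probe at 2644 kept its call when any single array was left out except shControl replicate 1 (adjusted p = 0.0564). The other 5 called probes kept theirs only when shExosc8 replicate 3 was left out. So the count of called probes was 0 without shControl replicate 1, 1 without shExosc8 replicate 1 or 2 or shControl replicate 2 or 3, and 7 without shExosc8 replicate 3, when Parn was added. Under normexp background correction it was 1 with percentile scaling, that of Exosc10 at 2059, and 2 with quantile normalization, and with no filter on dim probes it was 0. Under each of these scalings, 10 or 11 of the 12 probes lay below the median of all probes.

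**Figure D3:**
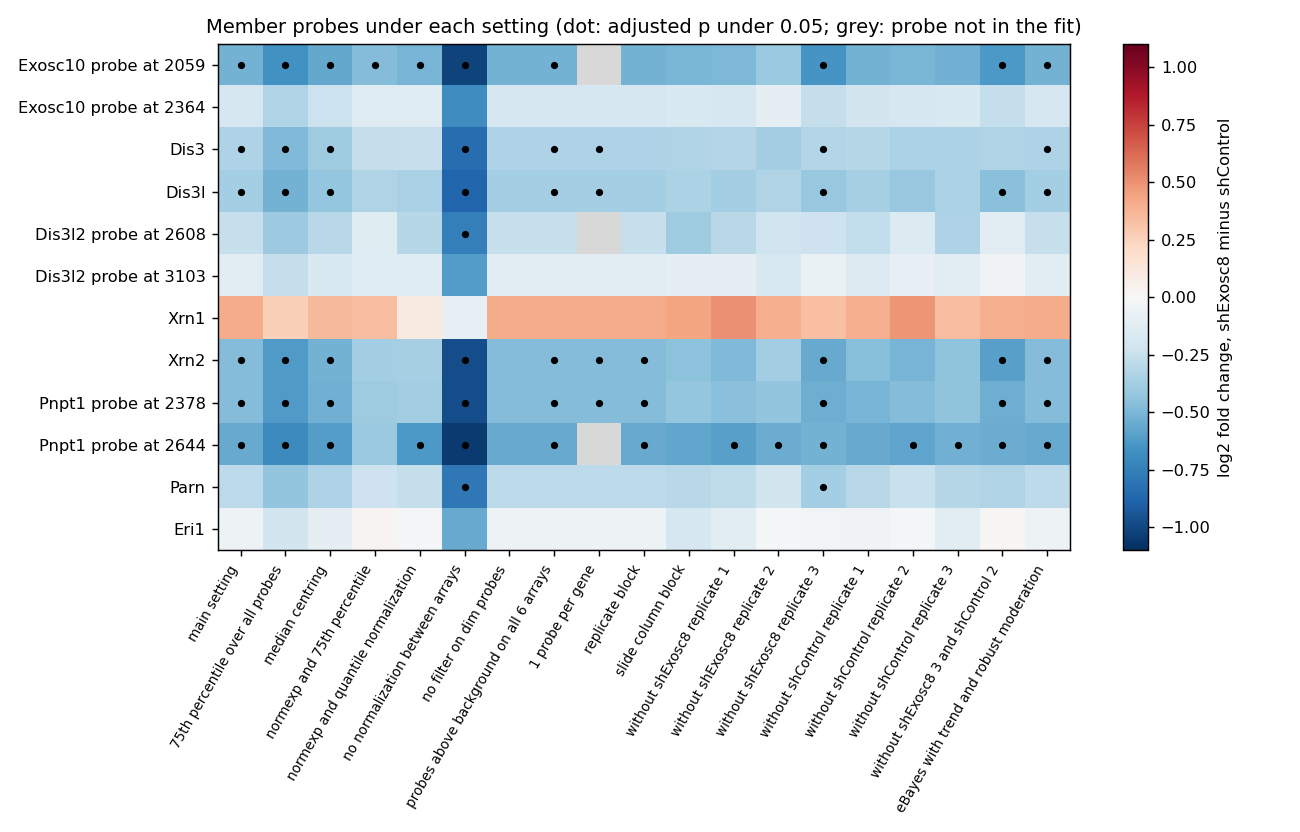
Log2 fold change of each exoribonuclease probe (rows) under the main setting and 18 alternatives (columns), coloured from blue (lower in shExosc8) to red (higher). A dot marks an adjusted p under 0.05 and grey a probe not in that fit; the called probes stay blue wherever they were fitted, while the number of dots runs from 0 to 8 per column.

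In the authors' deposited table, 11 of the 12 probes also had a fold change below 0, but 0 had an adjusted p under 0.05 and 2 had an unadjusted p under 0.05. The authors' deposited table gives -0.73 with an adjusted p of 0.0935 for the Pnpt1 probe at 2644, and -0.53 with 0.169 for the Exosc10 probe at 2059. For Xrn1 the authors' deposited table gives 0.15 with an adjusted p of 0.661. For Exosc8, the hairpin's target, it gives -1.06 with an adjusted p of 0.0730, so the target did not pass 0.05 there either. By the adjusted p of the authors' deposited table, 1980 of 59305 spots passed 0.05. The limma fit with no filter on dim probes called 1708 of 55660 probes, and the filtered fit 6908 of 24836.

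The promoters of these genes share a high CpG content. RefSeq windows on GRCm38.p6, 250 bases before to 50 after a start site, were found for 8 of the 9 genes and numbered 10. Eri1 had none. They held a median of 24.5 CpG dinucleotides (14 to 37), where the median over 32851 windows was 7 and 36.3% held at least 14. CpG counts ran from 15 to 37 in windows of the genes with a called probe and from 14 to 31 in the others.

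Motifs were searched on both strands. CCGGAAG, a core bound by ETS factors, was in 5 of the 10 windows, 1 each of Dis3, Dis3l2, Exosc10, Parn and Xrn2, and in 8.86% of all windows. These were 3 of the 5 genes with a called probe and 2 of the 3 others with a window. CACGTG, the E-box, was in 1 member window (Xrn2) and 7.15% of all, and GCGCATGC, the NRF1 core, in 1 (Exosc10) and 2.71%. AGATAA or TGATAA, bound by GATA factors, was in 0 of the 10 and 18.6% of all, and AAGATGGCG, the YY1 core, in 0 and 1.40%. In the member windows no match overlapped another.

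The windows of 3 called genes are shown to set matches beside a window without any. Capitals mark motif matches: the ETS core 138 bases before the start of Dis3, and the ETS core and E-box just after that of Xrn2, at 5 and 22 bases with the start site as base 1. Dis3 is at chr14:99099721-99100020 (minus strand), Xrn2 at chr2:147012749-147013048 and Pnpt1 at chr11:29130494-29130793 (both plus), and each is printed in the gene's direction.
Dis3: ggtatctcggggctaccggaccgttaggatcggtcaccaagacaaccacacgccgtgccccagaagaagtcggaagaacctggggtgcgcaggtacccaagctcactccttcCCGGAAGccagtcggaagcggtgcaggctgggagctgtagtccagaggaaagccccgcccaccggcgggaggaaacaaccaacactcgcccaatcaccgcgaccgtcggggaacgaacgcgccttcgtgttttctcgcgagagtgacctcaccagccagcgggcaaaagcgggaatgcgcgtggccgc
Xrn2: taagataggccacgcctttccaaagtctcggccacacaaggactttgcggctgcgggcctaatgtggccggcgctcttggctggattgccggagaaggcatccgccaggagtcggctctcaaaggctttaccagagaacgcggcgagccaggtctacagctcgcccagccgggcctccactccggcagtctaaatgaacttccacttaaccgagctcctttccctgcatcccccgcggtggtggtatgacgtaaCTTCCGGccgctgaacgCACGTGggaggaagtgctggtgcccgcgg
Pnpt1: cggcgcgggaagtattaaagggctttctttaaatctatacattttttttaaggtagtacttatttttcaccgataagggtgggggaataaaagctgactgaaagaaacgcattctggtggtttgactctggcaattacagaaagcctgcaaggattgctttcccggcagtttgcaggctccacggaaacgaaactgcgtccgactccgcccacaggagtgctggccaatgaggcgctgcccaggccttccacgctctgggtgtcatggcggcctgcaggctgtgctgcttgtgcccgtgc

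The called genes thus include windows with and without an ETS match, and so do the uncalled ones. A match is a string of letters and no measure of binding.

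In 11 lists of RNA decay genes, 149 genes other than the 9 were tested, 1 probe each. Of these, Exosc8 included, 41 fell and 8 rose (40 and 8 of 148 without the hairpin's target), a share of 27.5% lower against 13.1% of all probes, with a median of -0.32. The order turned without shExosc8 replicate 1 or without shControl replicate 1, when 4 fell and 6 rose, and with no filter on dim probes, when 1 fell and 3 rose. Without shExosc8 replicate 3, 70 fell and 12 rose, and leaving out any of the remaining 3 arrays gave 12 to 17 that fell and 6 to 8 that rose. Across the scalings 29 to 103 fell and 5 to 8 rose, and with the slide column as a block 0 did either. The lists were chosen with earlier results known, and 11 genes stand in more than 1. With 1 array left out, the falls of every list dropped to 0 or 1 for at least 1 choice of array. The counts of each list below stand beside 13.1% of all probes called lower and 14.7% called higher.

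Among the 9 exosome core subunits, 4 fell and 0 rose, with a median of -0.51. One of these is Exosc8 itself, and of the other 8 subunits 3 fell and 0 rose, with a median of -0.46. Exosc1, a cap subunit of the ring, fell by 0.66 ± 0.14 on the log2 scale (limma, adjusted p = 0.0210). Of 14 partners of the exosome nucleases, 5 fell and 0 rose, with a median of -0.35. Mphosph6, which ties the exosome to ribosomal RNA precursors, fell by 0.82 ± 0.15 (limma, adjusted p = 0.0135). Ttc37, a scaffold of the cytoplasmic Ski complex that feeds RNA to the exosome, fell by 0.54 ± 0.11 (limma, adjusted p = 0.0150).

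Upstream of Xrn1, 4 of 19 decapping genes fell and 0 rose (median -0.25), where 13.1% of all probes were called lower. Xrn1 itself was above 0 and not called. Among the 4 that fell were Lsm7, of the ring that binds deadenylated messages (-0.52), and Patl1, which links that ring to decapping (-0.55). The falls numbered 0 without shExosc8 replicate 1, shControl replicate 1 or shControl replicate 3, and 10 without shExosc8 replicate 3. They numbered 3 without shExosc8 replicate 2 and 1 without shControl replicate 2. Of 17 genes in transcription termination or bound to Xrn2, 5 fell and 1 rose (median -0.29). Among the 5 were Cdkn2aipnl, a relative of the Xrn2-binding Cdkn2aip, at -0.49 and the termination factor Ttf2 at -0.57. With 1 array left out these falls numbered 7 without shExosc8 replicate 3 and 0 without any other array. Under both normexp settings they numbered 1. Lsm7, Patl1, Cdkn2aipnl and Ttf2 were called by limma in the main fit, at adjusted p-values of 0.0157, 0.0165, 0.0287 and 0.0305.

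Of 16 mitochondrial genes, 5 fell and 0 rose (median -0.35), as Pnpt1 did. Fastkd2, which binds mitochondrial ribosomal RNA, fell by 0.97 ± 0.18 (limma, adjusted p = 0.0132). Its probe was dim, with mean scaled log2 signals of -7.62 in shExosc8 and -6.65 in shControl. Polrmt, the mitochondrial RNA polymerase, fell by 0.76 ± 0.16 (limma, adjusted p = 0.0201). Around Parn, 4 of 11 fell and 0 rose (median -0.38). They include Usb1, which trims U6 RNA, at -0.90 ± 0.14 (limma, adjusted p = 0.00678), and Nop10, a subunit of H/ACA particles, at -0.60 ± 0.11 (limma, adjusted p = 0.0126).

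Of 23 deadenylation genes, 3 rose and 5 fell (median -0.25), where 14.7% of all probes were called higher and 13.1% lower. Pnldc1, a relative of Parn, rose by 1.92 ± 0.26 (limma, adjusted p = 0.00501), and the antiproliferative deadenylase cofactor Btg1 rose by 1.92 ± 0.29 (limma, adjusted p = 0.00709). Of 21 endoribonuclease genes, 1 rose and 4 fell (median -0.22). Ern1, the stress sensor of the endoplasmic reticulum, rose by 2.08 ± 0.23 (limma, adjusted p = 0.00274), and Rnaseh1, which cuts RNA in RNA-DNA hybrids, fell by 0.82 ± 0.10 (limma, adjusted p = 0.00417).

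Of 7 genes of uridylation, which marks targets of Dis3l2, 1 rose and 2 fell (median -0.16): Lin28a, which recruits uridylyltransferases, at 0.46 ± 0.11, and Tut1, the U6 uridylyltransferase, at -0.51 ± 0.14 (limma, adjusted p = 0.0266 and 0.0376). Lin28a was below 0 in 1 of 6 scalings and called in 3. Of 9 genes listed around Eri1, which include histone pre-mRNA processing factors and not only its partners, 1 rose and 2 fell (median -0.13). Zfp473, a histone pre-mRNA processing factor, was at 0.89 ± 0.15 (limma, adjusted p = 0.00967). Casp8ap2, which acts in the same processing step, was at -0.43 ± 0.10 (limma, adjusted p = 0.0259). Of 14 other RNA exonucleases, 2 rose and 4 fell (median -0.40). Beside the counts of these small lists, 14.7% of all probes were called higher and 13.1% lower. Among the 20 genes named from the lists, Exosc8, Pnldc1, Btg1, Fastkd2, Usb1, Zfp473, Ern1 and Rnaseh1 kept their call whichever single array was left out, and the other 12 lost it for at least 1. Over the 6 scalings, Fastkd2, Ttc37, Cdkn2aipnl and Tut1 were called in 4, and Zfp473 and Patl1 in 5.

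**Figure D4:**
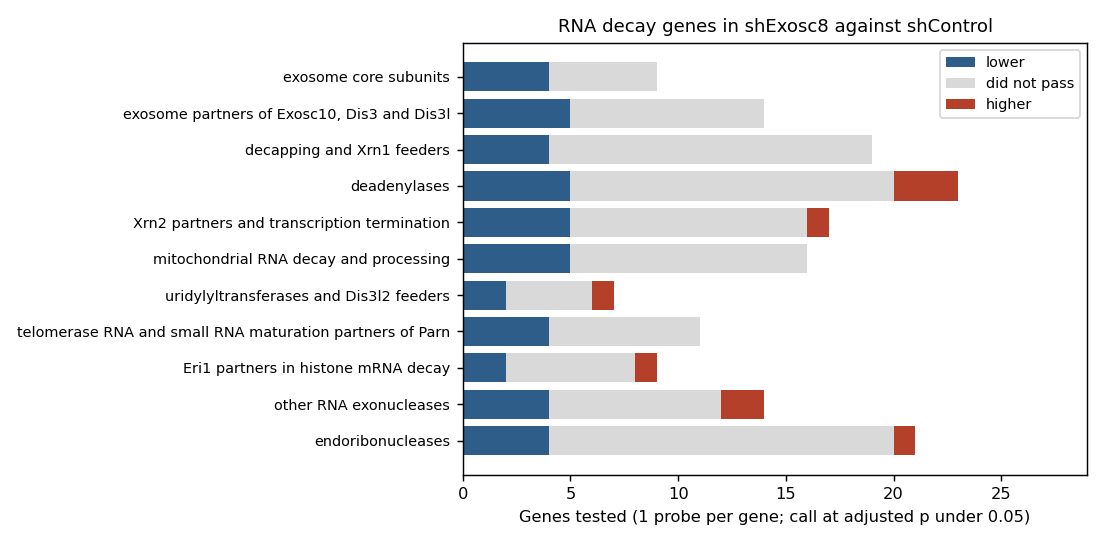
Number of genes tested in each of 11 RNA decay lists, 1 probe per gene, split into those called lower (blue), not called (grey) and called higher (red) in shExosc8. Every list holds called falls, and the most rises, 3, are among the 23 deadenylases. Over all probes tested, 13.1% were called lower and 14.7% higher. The falls of every list dropped to 0 or 1 for at least 1 choice of left-out array.

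For each member with a called probe, the decay gene with the most similar profile was taken by Pearson's r over the 6 arrays among 149 candidates. The probe of highest mean stood for each member. For Exosc10 this was the probe at 2364, which was not called (limma, adjusted p = 0.269), and for Pnpt1 the called probe at 2378. The most similar gene was Lsm11 for Exosc10 (0.989), Cnot1 for Dis3 (0.985), Nop10 for Dis3l (0.993), Dxo for Xrn2 (0.991) and Cstf2 for Pnpt1 (0.990). These arrays share the split into groups, so the values are descriptions and carry no test.

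Markers of other blood cells were higher in shExosc8. The signal summed over the list, in units of each array's 75th percentile, was 71.3 to 104 for megakaryocyte markers in shExosc8 and 7.53 to 11.0 in shControl, and 17 of 18 rose. For neutrophil and monocyte markers it was 59.2 to 74.6 against 23.9 to 27.6, and 14 of 15 tested rose (10 to 14 with 1 array left out). Erythroid markers summed to 652 to 1025 against 486 to 588, with 6 of 17 called up and 1 down (2 and 2 without normalization between arrays), so the labelled lineage was present in both groups. Macrophage markers summed to 3.08 to 3.49 against 0.902 to 1.13, with 7 of 9 tested up, from 17 on the array. Mertk, Timd4 and Vcam1 were not well above background on any array. C1qa, C1qc, Cd163, Fcgr1 and Mrc1 did not pass the filter on dim probes either. With 1 array left out the erythroid rises numbered 2 without shExosc8 replicate 1, 4 without shExosc8 replicate 2 or shControl replicate 1, 10 without shExosc8 replicate 3, and 5 or 6 otherwise. The macrophage rises numbered 7 without shExosc8 replicate 3 or shControl replicate 2, and 4 without any other array.

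Of the remaining lists, mast cell and basophil markers rose in 4 of 8 tested and fell in 1, with sums of 4.76 to 5.53 in shExosc8 against 2.85 to 4.58. Of 16 hepatocyte markers on the array 9 were tested, and 4 rose (sums of 0.776 to 1.02 against 0.490 to 0.579). These rises numbered 5 without shExosc8 replicate 3, 0 without shControl replicate 1, and 1 or 2 without any other array. Lymphoid markers rose in 2 of 7 tested, from 11 on the array, and in 1 when any array but shExosc8 replicate 3 was left out. Of these 7, 5 were well above background on all shControl arrays, as were 8 of 9 macrophage and 8 of 9 hepatocyte markers. The rest passed the filter only through the shExosc8 arrays, which favours a rise. Endothelial and stromal markers rose in 2 and fell in 1 of 5 (1.47 to 1.65 against 1.16 to 1.17), and the rises numbered 1 except without shExosc8 replicate 3 or shControl replicate 2. Fcer1a, Ms4a2, Tpsab1, Apob, Fgg, Cdh5, Col1a1 and Col3a1 were not well above background on any array. The hepatocyte markers Alb, Apoa1, Fga, Krt8 and Ttr, and Mcpt8, Dcn and Tek, did not pass the filter on dim probes either. In bulk RNA, more cells of a type and more RNA per cell cannot be told apart. The part of these marker shifts in the exoribonuclease values was not tested.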

How the data were processed

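The deposited spot intensity values come from Agilent Feature Extraction 10.7.3.1 (array design 028005, mm9), per the file headers, which subtracted background and detrended each array. The authors' deposited series table repeats those intensities and adds log2 fold changes and p-values of the comparison. The submitters' processing notes name limma, and the normalization behind those values is not named in the sources used here.

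Of 62976 features, 3671 controls were left out, as were outlier spots, and spots were averaged per probe. Probes were named through RefSeq by accession (27495) or symbol (3549), and 24616 kept the files' name. Log2 signal was scaled to each array's 75th percentile over 21615 probes well above background on all 6 arrays. A probe entered the fit if every array of either group had it well above background (24836 probes); the fit used limma 3.58.1 in R 4.3.3 (lmFit, eBayes, two-sided). In list counts, the probe of highest mean stood for a gene. Tested on simulated data with 24836 probes of this comparison, the step found 25 of 100 changes of log2 size 1, found 0 of 100 of size 0.5, and made 6 false calls. An unadjusted limma p under 0.05 was found for 94 and 68 of them. No other probes were changed there, where the data gave 6908 calls, so adjustment was stricter in the simulation. It therefore does not give the share of changes found in the data.

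Samples were grouped by title. Members, lists and alternatives were chosen with earlier results of these data known. Named genes were every member probe, Exosc8, the 2 genes of smallest p in each list that are not members, and the most similar decay gene for each called member. A planned comparison of protein sequences was not run, and a marker gene's values are not reported here. The arrays shared 1 slide and 1 scan. Their number limits the precision. Alternatives covered scaling, background correction, filter, probe choice, blocks, variance model and left-out arrays.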

Additional observations from a re-analysis of the deposited data

How the results depend on the processing

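The count of exoribonuclease probes called lower, 6, was also 6 with the percentile over all probes, median centring, the stricter filter, and trend with robust moderation. It was 8 with no normalization, 4 with 1 probe per gene, 1 under normexp with the percentile, 2 under normexp with quantile normalization, 0 with no filter, 0 with slide column as a block (1 residual degree of freedom), and ranged from 0 to 7 with 1 array left out. The replicate block gave 3, Xrn2 and both Pnpt1 probes, and 7101 probes in all. Deviations of same-numbered samples correlated at 0.052, 0.21 and 0.28, and those of differently numbered samples at -0.25 to 0.13. Replicates 2 and 3 of shExosc8 correlated best with their own number, and replicate 1 with shControl replicate 2 (0.13). The labels give no pairing, and it was not taken up in the main fit. No alternative called a member higher. Probes called in all, 6908 (52.8% higher), came to 12534 (16.6% higher) with no normalization, 1708 (83.5%) with no filter and 408 (92.9%) with the slide column block, and ranged from 2862 to 10730 with 1 array left out. The share higher was 35.4% with the percentile over all probes and 67.8% under normexp with the percentile; the median of all probes was then -0.23 and 0.04. Exosc8 was not called with the slide column block (-1.03, adjusted p = 0.142). Signs turned for Xrn1 without normalization (-0.090) and for Eri1 under normexp with the percentile (0.031) and with the third shExosc8 and the second shControl array both out (0.0093), none of them called. Of 396 list counts under the alternatives, 249 stayed within 1.5 times and 147 moved. The cause of these shifts was not tested.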
